A study of Mus musculus with 9 samples.

Results

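The contrast described here is ageing within the 3xTG mouse line, 12 months over 3 months of age, reached through wild-type (WT) mice because 3xTG mice of both ages were never placed on the same array. Its members are all 9 two-colour arrays of the series. For each probe, the mean log2 ratio of 3xTG 12 over WT 12 months was added to the mean of WT 12 over WT 3 months, and the mean of 3xTG 3 over WT 3 months was subtracted. The result is set beside ageing in WT mice, gene by gene and list by list. Of 29922 probes, 3696 (12.4%) had a listed value on 2 or more arrays in each comparison and entered the test; they named 2625 of the 16637 genes on the array.

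Hippocampal RNA came from 8 female mice, 2 in each of 4 groups, and each sample was RNA of one hippocampus. The WT mice of 3 and 12 months had the strain label 129SV with C57BL6. The 3xTG mice of 3 and 12 months had another strain label, so the strain labels differ between the 2 sides of each genotype comparison. The labels name no treatment and no transgene promoter, and the study's title places the line among mice that over-express mutant APP and tau, among others. WT mice 15 and 16 and 3xTG mice 22 and 23 were 3 months old, and WT mice 24 and 25 and 3xTG mice 4 and 7 were 12 months old.

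As background, the 3xTG line carries mutant genes of familial Alzheimer's disease and of frontotemporal dementia, and it is known for amyloid plaques and tau tangles that build up with age, in the hippocampus among other regions. Amyloid-β is cut from the amyloid precursor protein by secretases. Hippocampal ageing is commonly described through synaptic and mitochondrial genes and through glial cells, the astrocytes and microglia that surround neurons.

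The mice do not carry equal weight. In the plain means, 3xTG mouse 4 had a weight of 0.67 and mouse 7 of 0.33 at 12 months, and mouse 22 had -0.67 and mouse 23 -0.33 at 3 months. The WT mice cancel only in part, with weights of 0.33 for mice 15 and 25 and -0.33 for mice 16 and 24. The arrays also form 5 closed chains, each running from a 12-month 3xTG mouse through 1 WT mouse of each age to a 3-month 3xTG mouse, in which every WT mouse cancels itself; the chains share arrays, so they are not independent. A dye effect does not cancel in them: it enters the chains with weights of 1, 1, -3, -3 and -1, and the plain means with -0.33. Among the 142 probes listed on all 9 arrays, the median range between the lowest and highest of the 5 chains was 3.24 log2 units. All 5 chains lay above 0 for 13 of these probes (9.15%) and below 0 for 11 (7.75%). The plain means can lie on the other side of 0 from such chains, as they did for 3 of the 10 probes whose chains lay closest together. Skp1, a subunit of SCF ubiquitin ligases, stood at 0.01 ± 0.95 (SE) with chains from -0.74 to -0.15. Vdac3, a channel of the outer mitochondrial membrane, stood at 0.19 ± 1.18 with chains from -0.91 to -0.17. For Arid1a, a subunit of the SWI/SNF chromatin remodeller, the plain mean was -0.31 ± 1.504 and the chains ran from 0.29 to 2.73. Rit2, a neuronal small GTPase, the ribosomal protein gene Rpl27a and the protein kinase A inhibitor gene Pkia stood at -0.33, -0.40 and -0.63 in the plain means, with all their chains between -2.43 and -0.20.

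Values are log2 ratios of test over reference relative to the median of each array's listed values, which ran from -1.71 to 2.33 before centring. Each array listed 45.7 to 54.1% of the probes, and no listed value was smaller than 0.501 in size, so ratios near 0 before centring are missing from the means. Ratios hold no levels, so the tissue could not be checked against absolute marker expression, and signal over background is unknown. A bulk ratio cannot tell fewer cells of a type from less RNA per cell.

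No probe passed the threshold for ageing in 3xTG. By limma's moderated test with Benjamini-Hochberg adjustment, 0 of 3696 probes (0%) had an adjusted p below 0.05, and the smallest was 0.914. At an unadjusted p below 0.05 there were 180 probes (4.87%), 108 above 0 (2.92%) and 72 below (1.95%), where a rate of 5% would give 184.8. The median SE of a probe was 1.78 log2 units, against 1.20 for WT ageing, which rests on 3 arrays in place of 9. The middle 90% of the probes lay between -3.40 and 4.05.

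For WT ageing, 0 probes (0%) passed after adjustment and 493 (13.3%) had an unadjusted p below 0.05 in limma, 102 above 0 (2.76%) and 391 below (10.6%). The test of ageing in 3xTG minus ageing in WT, which equals the genotype ratio at 12 months minus that at 3 months, also gave 0 probes (0%) after adjustment, with a smallest adjusted p of 0.624. It gave 294 (7.95%) unadjusted, 222 above 0 (6.01%) and 72 below (1.95%). Both ageing contrasts contain the same 3 arrays of WT 12 over 3 months. Their values are therefore given side by side and no likeness between them is counted. The WT mice of 12 months are test in WT ageing and reference in the 12-month genotype comparison. The WT mice of 3 months are reference in WT ageing and in the 3-month genotype comparison. The 3 hybridised comparisons are therefore not independent of each other.

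Centring moved all 3 medians. The median over all probes tested was 0.09 for 3xTG ageing, -0.09 for WT ageing and 0.39 for the difference; without centring these were 0.59, 1.83 and -1.07. With centring on abundant transcripts (respiratory chain, ribosomal, proteasome, glycolytic and related genes), they were -0.57, 0.45 and -0.78. The calls at an unadjusted p below 0.05 split with it: for 3xTG ageing 167 above and 42 below 0 without centring, and 59 and 118 with abundant transcripts. For WT ageing the splits were 830 and 47, and 185 and 312. For the difference they were 48 and 264, and 62 and 226. The sign of the median difference therefore depends on the centring. Some of the gene lists below are also given relative to the median of all genes tested under the same setting. The remaining lists are given with array-median centring only, and their medians can change sign with another centring.

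**Figure D1:**
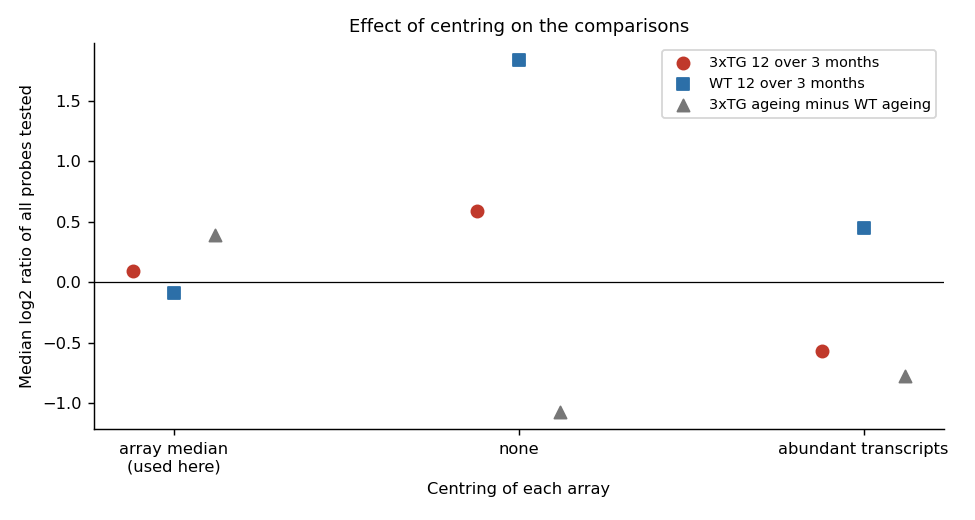
Median log2 ratio of all 3696 probes tested (vertical axis) for ageing in 3xTG, ageing in WT and their difference, under 3 ways of centring each array (horizontal axis). The median for 3xTG ageing was 0.09 with the array median, 0.59 with none and -0.57 with abundant transcripts.

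The probe with the smallest p for ageing in 3xTG was that of Chrnb1 (probe mMC016719), which encodes the beta subunit of the muscle nicotinic acetylcholine receptor. The log2 ratios were 2.88 and 1.77 on the 2 arrays of WT 12 over 3 months that listed it, -1.59, -1.93 and -1.67 in the 3-month genotype comparison (3xTG over WT), and 2.89, 4.19 and 2.25 at 12 months. All values for 3xTG over WT were below 0 at 3 months and above 0 at 12 months. Of the 385 probes listed on all 6 genotype arrays, 36 (9.35%) lay on opposite sides of 0 at the 2 ages in this way, in either direction. The 3xTG ageing ratio was 7.17 ± 1.21 (SE) and that of WT 2.33 ± 0.91 (SE); limma gave a p of 0.000247 for the former, with an adjusted p of 0.914. Its 3 complete chains gave 7.63, 7.45 and 6.81.

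Il6st encodes gp130, the signalling receptor shared by the interleukin-6 cytokines. The arrays gave 2.77 and 2.85 for WT ageing, 0.66, -0.95 and -1.73 in the 3-month genotype comparison, and 0.16, 1.89 and 1.04 at 12 months. WT ageing values were close together, while the genotype values at 3 months lay on both sides of 0. Ageing in 3xTG stood at 4.52 ± 1.35 (SE; adjusted p of 0.933 in limma) against 2.81 ± 1.02 (SE) in WT.

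Id2, an inhibitor of basic helix-loop-helix transcription factors, had values of 6.31 and 0.46 for WT ageing, -1.89, -1.58 and -3.09 in the 3-month genotype comparison, and 2.85 and 0.59 at 12 months. The genotype values of the 2 ages did not overlap, and the pair of WT ageing values lay far apart. How often so few values fail to overlap among all probes was not counted. Its 3xTG ageing ratio was 7.29 ± 2.04 (SE; adjusted p of 0.933 in limma), and that of WT was 3.38 ± 1.39.

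The other leading probes above 0 belonged to genes of varied function. Slc5a5, the sodium-iodide symporter, stood at 7.89 ± 1.45 and Fabp5, a fatty acid binding protein, at 6.92 ± 1.64. Gtsf1, a germline factor of the piRNA pathway, stood at 6.88 ± 1.74, and Mrpl51, a protein of the mitochondrial ribosome, at 6.49 ± 1.73. Olfr53 (an olfactory receptor), Chrac1 (a histone-fold subunit of a chromatin remodeller), Lrat (which forms retinyl esters), Sbf1 and 1810034E14Rik lay between 4.21 and 6.40. Sbf1, which encodes a myotubularin-related pseudophosphatase, had a second tested probe that gave 0.41 ± 1.39 where the first gave 4.99 ± 1.43, so its probes disagree. The adjusted p of the leading probe of these 9 genes was 0.933 in limma.

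**Figure D2:**
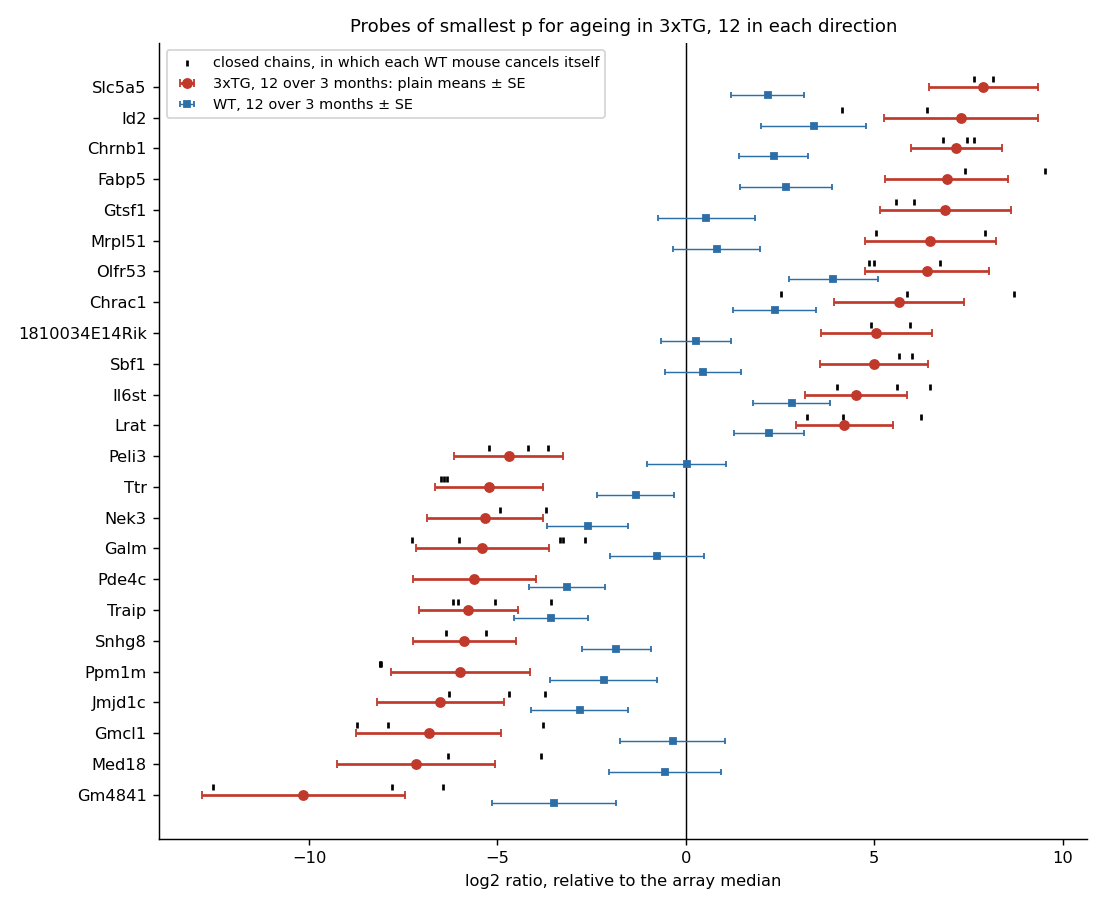
log2 ratio (horizontal axis) of the 12 probes of smallest p in each direction for ageing in 3xTG, by gene. Circles and bars are the plain means ± SE, ticks above them the closed chains, and squares WT ageing ± SE; all chains drawn lie on the same side of 0 as the circle, from Gm4841 at -10.16 to Slc5a5 at 7.89.

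Ttr encodes transthyretin, the carrier of thyroid hormone and of retinol binding protein, made in the brain chiefly by the choroid plexus. Its arrays gave -1.27 and -1.41 for WT ageing, -0.92 and 1.51 in the 3-month genotype comparison, and -3.57, -3.49 and -3.73 at 12 months. The 3 values at 12 months lay close together and below every other value of this gene. Ageing in 3xTG stood at -5.23 ± 1.43 (SE; p of 0.00683, adjusted p of 0.933 in limma), WT ageing at -1.34 ± 1.03, and the 3 complete chains at -6.41, -6.35 and -6.51. Beside it, the other tested markers of choroid plexus and ependyma were Igf2 at -1.93 ± 1.31 and Foxj1 at -0.39 ± 2.04. Of 19 markers on the array 3 were tested, and 3 of 3 lay below 0 in 3xTG and 2 of 3 in WT. Ttr, itself 1 of the 3, was named for its small p, and 49.2% of all genes lay below 0 in 3xTG. The part of choroid plexus tissue taken along in dissection in these ratios was not tested.

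Traip, a ubiquitin ligase of DNA replication and repair, had values of -3.92 and -3.23 for WT ageing, 1.37, -0.12 and 0.22 in the 3-month genotype comparison, and -2.72, 0.22 and -2.61 at 12 months. One array at 12 months, that of mouse 4 against WT mouse 25, stood apart from the other two. Its ratio was -5.77 ± 1.32 (SE) in 3xTG and -3.58 ± 0.99 in WT (adjusted p of 0.933 for 3xTG in limma).

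Galm, which encodes galactose mutarotase, was the only one of these 24 probes listed on all 9 arrays. It gave 0.36, 0.82 and -3.49 for WT ageing, 2.83, 6.18 and 3.57 in the 3-month genotype comparison, and -0.61, -0.20 and -0.51 at 12 months. The genotype values of the 2 ages lay on opposite sides of 0, as they did for 9.35% of the 385 probes listed on all 6 genotype arrays. Its 3xTG ageing ratio of -5.40 ± 1.77 (SE) came with chains from -7.26 to -2.67 and an adjusted p of 0.933 in limma.

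Among the remaining probes below 0 were regulators of transcription and signalling. Jmjd1c, of the JmjC histone demethylase family, stood at -6.52 ± 1.69 and Med18, a Mediator subunit, at -7.16 ± 2.10. Pde4c, a cyclic AMP phosphodiesterase, stood at -5.62 ± 1.63, with -3.15 ± 1.01 in WT. Nek3 (a kinase of the NIMA family), Peli3 (a ubiquitin ligase of innate immune signalling), Ppm1m (a protein phosphatase), Gmcl1 and the small nucleolar RNA host Snhg8 lay between -6.83 and -4.71. Gm4841 had the most negative value of the 24 probes, -10.16 ± 2.69, where a single array at 3 months reached 5.64 and the other gave -1.73.

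**Figure D3:**
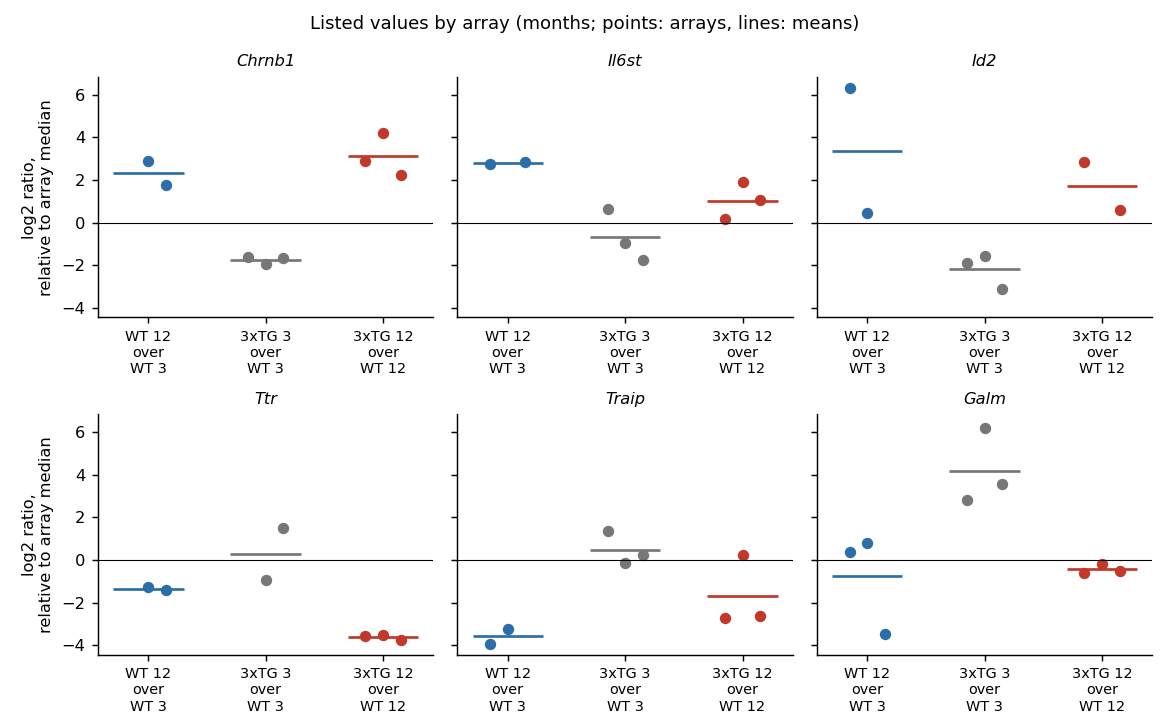
log2 ratio on each array (vertical axis; points, with lines for means) of Chrnb1, Il6st, Id2, Ttr, Traip and Galm in the 3 hybridised comparisons (horizontal axis; ages in months). Ttr lies at -3.73 to -3.49 on the 3 arrays of 3xTG over WT at 12 months, and Chrnb1 lies below 0 on all 3 arrays at 3 months and above 0 on all 3 at 12 months.

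For the difference between the lines, the probe of smallest p was Lmna, which encodes lamins A and C of the nuclear envelope. Its values were -1.98 and -1.45 for WT ageing, -1.85, -1.49 and -0.35 in the 3-month genotype comparison, and 3.67 and 5.75 at 12 months. Values at 12 months lay well above all others. Ageing in 3xTG stood at 4.23 ± 1.33 and in WT at -1.71 ± 1.01, a difference of 5.94 ± 1.25 (SE; p of 0.00156, adjusted p of 0.624 in limma). For Csnk1g2, a casein kinase 1 isoform, the difference was 6.77 ± 1.51, with 1.98 ± 1.68 in 3xTG and -4.80 ± 1.27 in WT. Hip1r, which links clathrin to actin, differed by 5.24 ± 1.22, Ip6k1, an inositol hexakisphosphate kinase, by 4.43 ± 1.10, and Gpc1, a heparan sulphate proteoglycan, by 4.83 ± 1.22. In the opposite direction, the transcription factor Stat5b stood at -3.48 ± 1.19 in 3xTG and 2.59 ± 0.84 in WT, a difference of -6.06 ± 1.19. The second Sbf1 probe differed by -6.05 ± 1.41 and the first by 4.54 ± 1.35. Gmcl1, Peli3, Tmem184c and the polycomb gene Pcgf1 lay between -6.49 and -3.84. All these differences had an adjusted p of 0.624 in limma.

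When only the 142 probes listed on all 9 arrays were fitted and adjusted among themselves, the difference between the lines passed for 9 probes (6.34%), all above 0. Listing on every array selects probes by their own ratios: in this set the median genotype ratio was 1.74 at 3 months and 2.18 at 12 months, against 0.13 and 0.60 over all 3696 probes. The 9 probes belonged to Ip6k1, Gpc1, Ccpg1, Itpk1, Samd14, Mgst3, Trim8, Mef2c and Dgcr2; naming all 9 was decided after their values were seen. In this fit WT ageing passed for 22 probes (15.5%) and ageing in 3xTG for 0 (0%), with 3 of 142 at an unadjusted p below 0.05 in limma. The 9 probes had WT ageing ratios of -4.76 to -2.91 and 3xTG ageing ratios of -0.33 to 2.84.

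Mef2c, a transcription factor of neuronal development and synapse number, showed the largest difference of the 9. Its values were -3.08, -1.77 and -4.06 for WT ageing, -3.77, 0.05 and -0.15 in the 3-month genotype comparison, and 5.22, 4.54 and 3.80 at 12 months. Values at 12 months were all high, and 1 of 3 at 3 months was low. Its ageing ratio was 2.84 ± 1.39 in 3xTG and -2.97 ± 0.99 in WT, a difference of 5.81 ± 1.39 (adjusted p of 0.0365 in limma over the 142 probes).

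For Ip6k1 the arrays gave -4.04, -5.70 and -4.55 for WT ageing, -1.69, -0.45 and -1.63 in the 3-month genotype comparison, and 2.79, 3.59 and 3.14 at 12 months. No value of one comparison overlapped another, though the comparisons share WT mice. How often this occurs among all probes was not counted, and Ip6k1 was named for a small p of the difference between the lines. The 3xTG ageing ratio was -0.33 ± 0.87 against -4.76 ± 0.61 in WT, with a difference of 4.43 ± 0.87 (adjusted p of 0.0343 in limma over the 142 probes). The ER-phagy receptor Ccpg1 and the microsomal glutathione transferase Mgst3 differed by 4.19 ± 0.84 and 4.76 ± 1.09 in the same fit.

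These 9 calls depended on the settings. Of the 142 probes, 0 passed without centring, with centring on abundant transcripts, with a dye term and a variance ratio estimated beside it, with a variance ratio of 1 between mice and arrays, with the replicate number as a block, or with the ratio read as Cy5 over Cy3. Likewise 0 passed without array 1 or array 3 of the 3-month genotype comparison, and without array 2 or array 3 at 12 months, while 4 passed without array 1 at 12 months. The 9 differences stayed above 0 in all of these except the reading as Cy5 over Cy3, in which 0 of 9 did.

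**Figure D4:**
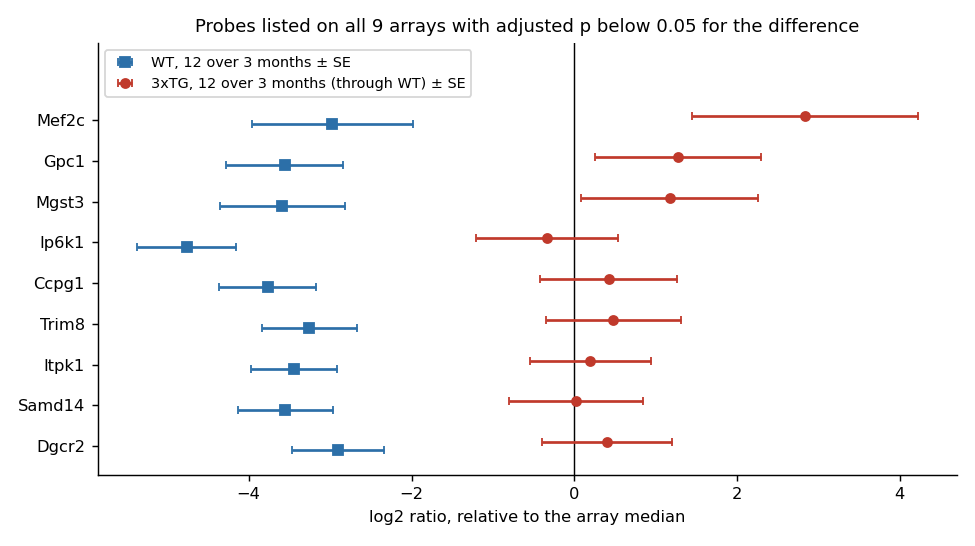
Ageing ratio (log2, horizontal axis) in 3xTG (circles) and in WT (squares), each ± SE, for the 9 probes listed on all 9 arrays with an adjusted p below 0.05 for the difference. The WT values lie between -4.76 and -2.91 and the 3xTG values between -0.33 and 2.84.

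Of the genes tied to the transgenes, App stood at 0.29 ± 1.08 in 3xTG (-0.36 with centring on abundant transcripts) and 0.90 ± 0.76 in WT. Its values were 1.94, -0.06 and 0.81 for WT ageing, 2.08, 3.55 and 2.79 in the 3-month genotype comparison, and 2.41, 1.84 and 2.36 at 12 months. Relative to the array median App was above WT on all 6 genotype arrays, and the 2 ages overlapped in range. App is among the 142 probes listed on all 9 arrays. In that set the median genotype ratio was 1.74 at 3 months and 2.18 at 12 months, so ratios of this size are common there. The ratio for Thy1, a neuronal surface glycoprotein, was -1.33 ± 1.06 in 3xTG and -2.53 ± 0.80 in WT. Mapt was not analysed here.

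By gene function, 118 of 2625 genes (4.5%) had an unadjusted p below 0.05 for ageing in 3xTG, 66 above 0 (2.51%) and 52 below (1.98%). In WT there were 384 (14.6%), 64 above 0 (2.44%) and 320 below (12.2%). For the difference there were 209 (7.96%), 166 above 0 (6.32%) and 43 below (1.64%). The share of genes above 0 was 50.8% in 3xTG, 45.6% in WT and 59.8% for the difference, and the share below 0 was 49.2%, 54.4% and 40.2%. The medians over all genes were 0.05, -0.19 and 0.45. Among the 48 lists with at least 5 tested genes, list medians ran from -0.82 to 2.38 in 3xTG and from -2.80 to 1.96 in WT. Both highest medians were those of defensins, caseins and other secretory genes, a list of 5 tested genes not expected in hippocampus. In the fit of all 3696 probes no gene of any list passed the adjusted threshold in limma, so counts and medians below are descriptions.

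**Figure D5:**
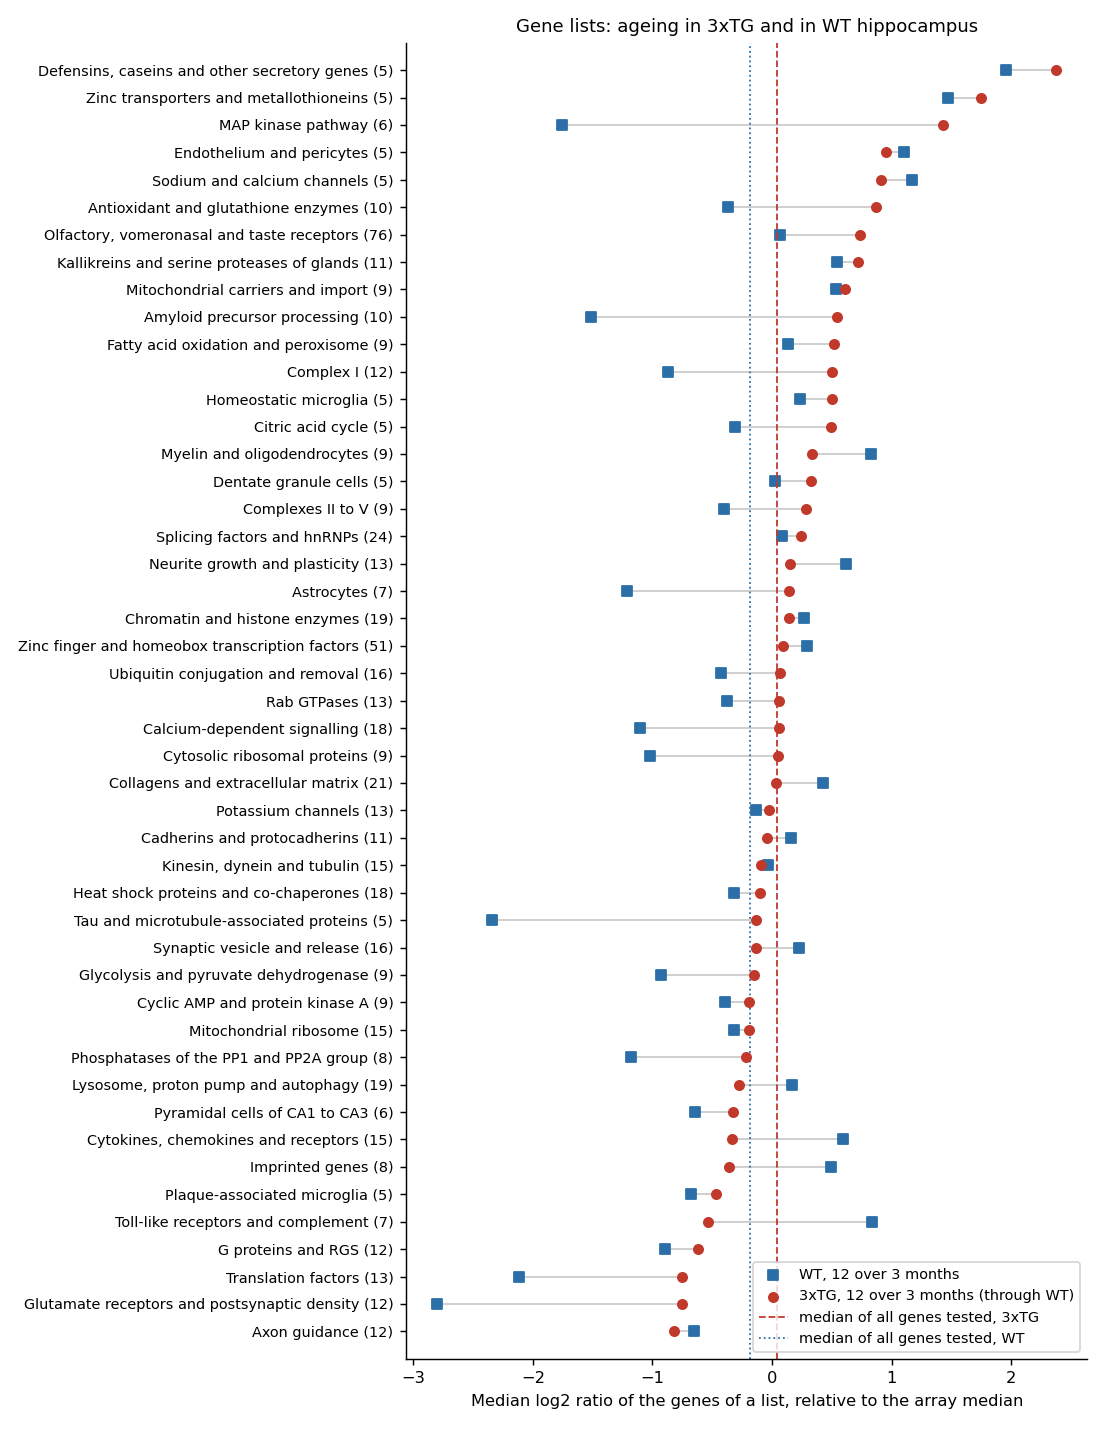
Median ageing ratio (log2, horizontal axis) of the genes of the lists with at least 5 tested genes (1 list is not drawn), number of tested genes in brackets, in 3xTG (circles) and in WT (squares); vertical lines mark the medians of all 2625 genes tested, 0.05 in 3xTG and -0.19 in WT. The lowest WT median is that of glutamate receptors and the postsynaptic density, -2.80, where the 3xTG median is -0.75.

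Glutamate receptors and the scaffolds of the postsynaptic density receive excitatory signals at spines. Of 48 such genes on the array 12 were tested, and 5 of 12 were above 0 in 3xTG against 2 of 12 in WT. The list median was -0.75 in 3xTG and -2.80 in WT. Relative to the median of all genes it was -0.80 and -2.62. Without centring it was -0.84 and -2.64, again relative to all genes. An unadjusted p below 0.05 was reached by 0 genes in 3xTG and by 6 in WT, all 6 below 0. For the difference there were 9 of 12 above 0, against 59.8% of all genes, and 4 of the 9 had an unadjusted p below 0.05. The median difference was 1.05, but -0.22 without centring and -0.18 with centring on abundant transcripts.

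Gria1, a subunit of AMPA receptors, was picked after its values were seen as an example of those 6. Its values were -3.64, -4.22 and -3.70 for WT ageing, -2.27 and -1.09 in the 3-month genotype comparison, and 1.84, 2.60 and 3.56 at 12 months. The 3 comparisons did not overlap, though they share WT mice, and how often this occurs among all probes was not counted. Ageing stood at 0.49 ± 1.27 in 3xTG and -3.85 ± 0.80 in WT, a difference of 4.35 ± 1.24 (adjusted p of 0.624 in limma). By p in 3xTG the first genes of the list were the scaffold Dlgap4 at -2.83 ± 1.70, with -2.97 in WT, and the kainate receptor subunit Grik4 at -2.26 ± 1.80. Dlg4, the scaffold PSD-95, stood at 2.15 ± 2.30 and the NMDA receptor subunit Grin2a at -1.70 ± 1.94.

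Genes of presynaptic release gave a median of -0.14 in 3xTG and 0.22 in WT over 16 tested genes, with 0 and 3 at an unadjusted p below 0.05. The complexin Cplx3 stood at 3.07 ± 1.46 and the syntaxin Stx7 at -3.20 ± 2.36 in 3xTG. Of 13 potassium channel genes, 5 lay above 0 in 3xTG and 6 in WT, and 0 of 13 reached an unadjusted p below 0.05 in 3xTG. In the list of sodium and calcium channels, 4 of 5 genes were above 0 in both lines. Scn9a, a voltage-gated sodium channel subunit, stood at 6.74 ± 2.33 (adjusted p of 0.933 in limma) and 1.56 ± 1.38 in WT, with 12-month genotype values of 5.57 and 1.20.

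Signalling lists spread widely. Of 18 genes of calcium-dependent signalling, 9 were above 0 in 3xTG and 5 in WT, with medians of 0.06 and -1.11; relative to all genes these were 0.01 and -0.92. The difference was above 0 for 16 of 18 genes, against 59.8% of all genes, with 3 at an unadjusted p below 0.05. Its median was 1.36, but -0.26 without centring and 0.21 with centring on abundant transcripts. Relative to the median of all genes these were 0.90, 0.73 and 0.93. The ryanodine receptor Ryr3, a calcium release channel, stood at 4.62 ± 1.96 in 3xTG, and the plasma membrane calcium pump Atp2b1 at -1.87 ± 1.40. The 6 tested genes of the MAP kinase pathway, of 76 on the array, had medians of 1.43 in 3xTG and -1.75 in WT. The difference lay above 0 in 6 of 6, against 59.8% of all genes. Dusp16 and Dusp18, phosphatases of the dual-specificity family, stood at 4.86 ± 2.32 and 2.10 ± 1.42 in 3xTG, and at 0.95 and -3.49 in WT.

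G proteins and their RGS regulators had 2 of 12 genes above 0 in 3xTG and 4 of 12 in WT; Gnb1, a G protein beta subunit, stood at -4.88 ± 2.32. Axon guidance genes had the lowest 3xTG median of the 48 lists, -0.82, with 4 of 12 above 0 and -0.65 in WT. The ephrin receptor Ephb1 stood at -3.87 ± 2.81 there.

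Amyloid precursor processing had 10 tested genes of 36 on the array, with medians of 0.54 in 3xTG and -1.51 in WT; relative to all genes the values were 0.50 and -1.33. Mme encodes neprilysin, a protease that degrades amyloid-β. It gave 2.31 and 1.39 for WT ageing, -2.83 and -0.06 in the 3-month genotype comparison, and 1.63 and 2.33 at 12 months. The genotype values of the 2 ages, only 2 at each age, did not overlap, and the pair at 3 months lay far apart. The share of all probes without such overlap was not counted. Its ageing ratio was 5.27 ± 1.60 in 3xTG (p of 0.014, adjusted p of 0.933 in limma) and 1.85 ± 1.13 in WT. Adam17, an α-secretase, stood at -2.98 ± 2.84, the adaptor Apba2 at -1.87 ± 1.77 and Apoe, the main apolipoprotein of the brain, at 1.04 ± 1.35. Among tau kinases, tau phosphatases and microtubule-associated proteins, 1 of 5 genes was above 0 in each line, with medians of -0.13 in 3xTG and -2.34 in WT. Ppp2ca, the catalytic subunit of the phosphatase PP2A, stood at -1.24 ± 1.31 in 3xTG.

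Respiratory complex I passes electrons from NADH into the mitochondrial chain. Of its 12 tested genes 8 were above 0 in 3xTG and 4 in WT, with medians of 0.50 and -0.87. The difference was above 0 in 10 of 12, against 59.8% of all genes, with a median of 2.10. That median was 0.22 without centring and 0.55 with centring on abundant transcripts. Relative to the median of all genes it was 1.65, or 1.21 without centring and 1.27 with centring on abundant transcripts. Complex I is itself part of the abundant transcripts used in that setting. Ndufa4, now counted with complex IV by many authors, had values of 1.63 and 1.32 for WT ageing, 1.71 and 1.61 in the 3-month genotype comparison, and 3.92, 2.49 and 3.23 at 12 months. Values at 12 months were above all others. Its ratio was 3.02 ± 1.31 in 3xTG and 1.47 ± 0.95 in WT (adjusted p of 0.987 in limma).

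Complexes II to V had medians of 0.28 and -0.40, with 7 of 9 genes above 0 in 3xTG and 3 in WT. For the mitochondrial ribosome, 7 of 15 genes were above 0 in 3xTG and 5 in WT, where 5 reached an unadjusted p below 0.05, all below 0. Cytosolic ribosomal proteins gave 5 of 9 above 0 in 3xTG and 1 of 9 in WT. The factors of translation, which start and extend protein synthesis, had medians of -0.75 in 3xTG and -2.12 in WT over 13 genes. Eif4a1, an initiation helicase, stood at -2.09 ± 1.42 in 3xTG and -3.34 in WT. The lysosome, proton pump and autophagy list had 5 of 19 genes above 0 in 3xTG and 10 in WT, with medians of -0.28 and 0.17. At an unadjusted p below 0.05 there were 0 of 19 in 3xTG and 6 in WT, all 6 below 0. Tmem106b, a lysosomal membrane protein tied to dementia risk, stood at 1.57 ± 1.00 in 3xTG, and its 5 chains ran from 0.99 to 2.28. Among heat shock proteins and co-chaperones, Dnajc10, an ER disulphide reductase, stood at 5.49 ± 2.08 and the chaperonin subunit Cct2 at 4.41 ± 2.12, with 4.65 in WT.

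Few markers of each cell type entered the test. Astrocytes, the glia that take up glutamate and potassium, had 4 of 7 markers above 0 in 3xTG and 2 in WT, with medians of 0.15 and -1.22. Gfap, the intermediate filament of reactive astrocytes, gave 2.07 and 1.79 for WT ageing, -1.79 and -1.62 in the 3-month genotype comparison, and 4.65 and -3.02 at 12 months. Both values at 12 months came from mouse 4 and lay on opposite sides of 0. Its 3xTG ageing ratio was 4.45 ± 2.94, against 1.93 ± 1.96 in WT, and its 2 complete chains gave 0.84 and 8.05. For S100b, a calcium-binding protein of astrocytes, the 3xTG ratio was 1.61 ± 2.25 and the WT ratio -4.63 ± 1.70.

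Markers of homeostatic microglia had a median of 0.50 over 5 genes in 3xTG and 0.23 in WT. In 3xTG 3 of the 5 were above 0 and 2 below, from -2.53 to Fcrls at 2.06 ± 1.38. Markers of plaque-associated microglia gave medians of -0.47 and -0.68 over 5 genes. Here 2 of the 5 were above 0 in 3xTG and 3 below. They ran from -0.58 to Cd68, a lysosomal protein of phagocytes, at 2.03 ± 2.10. Of 9 myelin and oligodendrocyte genes 6 were above 0 in each line; Mag, a myelin adhesion protein, stood at -2.03 ± 1.66 and Opalin at 3.08 ± 1.88. Dentate granule cell and pyramidal cell markers had medians of 0.33 and -0.33 in 3xTG, over 5 and 6 genes. Of T and B cell genes, 1 of 4 was above 0 in 3xTG and 2 in WT. Cd3g, a subunit of the T cell receptor complex, was named after its values were seen; it stood at -4.37 ± 1.51 (p of 0.0165 in limma), with 5 chains from -6.58 to -4.37. Ttr and Cd3g were the only cell type markers in these lists with an unadjusted p below 0.05 for ageing in 3xTG. The 4 markers of blood cells on the array were not tested.

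Families not known for expression in hippocampus gave ratios as large as those above. Of 76 olfactory, vomeronasal and taste receptors, 43 were above 0 in 3xTG and 40 in WT, with medians of 0.74 and 0.07. In 3xTG 6 of the 76 reached an unadjusted p below 0.05, 3 on each side, from Olfr938 at -5.28 ± 1.63 to Olfr53 at 6.40 ± 1.65. In WT 1 did. The part of signal from spots near background in all the ratios given here was not tested.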

How the data were processed

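The authors deposited one log2 ratio per probe and array; the sources used here do not name the scanner, background correction, filter or normalization. Per the labels' protocols, RNA of single hippocampi was linearly amplified and labelled with Cy5 or Cy3. Ratios were taken to be test divided by reference, since the arrays with swapped dyes correlated above 0 (0.197 to 0.308) with the others of their comparison. The base of the log and the overall sign rest on the values and labels. Test RNA was in Cy3 on 6 arrays and in Cy5 on 3.

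Of the probes, 21020 had 1 symbol and 8902 none; 13905 of 16675 symbols were current in RefSeq's table of assembly GRCm38.p6, 2728 were updated and 42 kept. A gene was its tested probe listed on most arrays; 90 genes had several tested probes, and 43 of these had probes on both sides of 0.

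Plain means were taken per comparison. The variance of each contrast came from a covariance of arrays that share mice, with a ratio of mouse to array variance of 0.497 (restricted maximum likelihood, 142 complete probes; 0.0544 for gene means of 516 genes), and was moderated with limma 3.58.1 (R 4.3.3). Residual degrees of freedom were 3 to 6. Of the arrays, 6 were biological replicates and 3 technical, per the series' design, which does not say which. P-values measure the spread between these arrays and 2 mice per group only. The code was tested on simulated data.

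The members, the 61 gene lists and the tests were chosen with earlier results of these data known, and wrongly caught genes were removed from lists after values had been seen. Genes to name were drawn from the 12 probes of smallest p in each direction, up to 4 genes per list, 6 probes in each direction for the difference, genes tied to the transgenes, and the 5 genes in each direction whose closed chains lay closest together. Alternatives covered centring, a dye term, the covariance, missing values, dye reading, blocks of replicate number and of the V number in raw-file names (its meaning is not given), and leaving out each array. Some items, 1 gene list and the strain label of the 3xTG mice among them, are not reported here.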

Additional observations from a re-analysis of the deposited data

Results flagged for a closer look

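For 11 of the genes named, all 3 arrays of 3xTG over WT lay on one side of 0 at 3 months and all 3 on the other side at 12 months. Among the 385 probes listed on all 6 of those arrays, 36 (9.35%) did so. Several of the 11 genes were named for a small p of this same difference. Their number therefore cannot be set against that share. The difference, genotype at 12 minus genotype at 3 months, was 4.84 for Chrnb1, 6.77 for Csnk1g2, 4.43 for Ip6k1, 4.83 for Gpc1, 4.19 for Ccpg1, 3.57 for Samd14, 3.64 for Camta1, 4.76 for Mgst3, 6.25 for S100b and 1.42 for Rab14, each below 0 at 3 months and above 0 at 12 months. Galm, with -4.63, ran the opposite way. The adjusted p in limma was 0.624 for 10 of these genes and 0.83 for Rab14.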

How the results depend on the processing

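Ageing in 3xTG had 0 probes past the adjusted threshold under every alternative run that gives a test. Its count at an unadjusted p below 0.05 (180 of 3696, 4.87%) was 3 of 142 (2.11%) among probes listed on all 9 arrays, 868 of 16999 (5.11%) when 1 array per comparison sufficed, 80 with values not listed set to 0 and 59 with the ratio read as Cy5 over Cy3; leaving out each array in turn gave 166 to 257. The difference between the lines had 9 probes past the adjusted threshold among those listed on all 9 arrays. That count, under settings chosen after seeing the data, was 0 without centring, with centring on abundant transcripts, with a dye term and a variance ratio estimated beside it, with a variance ratio of 1 and with the reading as Cy5 over Cy3, and 23 with arrays taken as independent; leaving out each array in turn gave 0 to 9. The 24 probes of smallest p for ageing in 3xTG kept their sign under every alternative that could be run for them, except that 17 turned with the reading as Cy5 over Cy3. These 24 were selected by p in the same data, so a kept sign does not measure their reliability. Of 48 list medians, 18 changed sign without centring, 22 with centring on abundant transcripts, 12 with a dye term and 18 in closed chains.

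Replicate numbers did not pair the arrays: deviations of same-numbered arrays correlated at -0.054 to 0.083. With the replicate number as a block, ageing in 3xTG had 128 probes at an unadjusted p below 0.05 and 0 after adjustment, and the difference had 0 among the probes listed on all 9 arrays. Using only the arrays with V numbers 57 to 66 in the raw-file names leaves no test; the median ratio of the 2283 probes listed there was 0.66. The 2 mice per group and an SE near 1.78 limit what the contrast can show.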
